A study of Arabidopsis thaliana with 9 samples.

Results

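The EF-hand calcium sensors and touch genes described here are 10 loci of Arabidopsis thaliana, chosen as EF-hand genes among or related to those already seen to be low in root tips that overexpress the transcription factor ERF115. The platform's probe annotation gives 9 of the 10 a probe set of their own, out of 22746 probe sets tested. These are CML23 (AT1G66400), CML37 (AT5G42380), CML38 (AT1G76650), CML42 (AT4G20780), AT1G76640, AT4G27280, AT2G41090, AT5G39670 and AT2G46600. TCH2 (AT5G37770), the touch gene also called CML24, has no probe set named in that annotation and was not analysed here. RNA came from the last 3 mm of the root of seedlings 5 days old and was hybridised to 1-colour Affymetrix arrays. There were 3 arrays of ERF115OE, which expresses the ERF115 reading frame from the constitutive 35S promoter in the Col-0 background. There were 3 arrays of erf115ko, the T-DNA insertion line SALK_021981 in the same background, and 3 of wild-type Col-0. All seedlings grew untreated on nylon mesh over full-strength MS medium in long days, and all tips were cut off with scalpels and frozen at once in liquid nitrogen. The number of independent lines per construct is not given in the sources used here, and no probe set was named as ERF115, so the labels were not checked against its level.

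An EF-hand is a helix-loop-helix fold whose loop holds a calcium ion. Calmodulins and the calmodulin-like (CML) proteins of plants are built largely of such folds, have no enzyme activity of their own, and change shape when calcium in the cytosol rises, which lets them bind target proteins. In Arabidopsis several of their genes were first found as touch genes, whose transcripts rise within minutes of bending, wetting or wounding a plant. CML37 and CML38 are known to respond to wounding and other stresses, and CML42 is known from leaf hairs and from responses to herbivores. The gene table lists calmodulin like 39 among the aliases of both AT1G76640 and CML37. The other 4 loci carry only a locus number there and are described by it.

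Array medians lay between 5.04 and 5.13 on the log2 scale, and arrays of the same genotype correlated across probe sets at 0.9955 to 0.9981. For the actin control, the signal near the 3' end exceeded that near the 5' end, which tracks RNA integrity, by 1.96 to 2.14 in ERF115OE, 2.19 to 2.24 in erf115ko and 2.08 to 2.31 in Col-0 (log2), so the overexpressor arrays lay below those of the mutant. For GAPDH the excess was 0.11 to 0.24, 0.11 to 0.31 and 0.17 to 0.23 in that order. For the older actin probe sets it was 4.18 to 4.54, 4.34 to 4.53 and 4.21 to 4.48. All genotypes overlapped in both of these. The 2 root hair markers measured of 5, EXPA7 and EXPA18, had a summed linear level of 868 to 1025 in ERF115OE, 531 to 573 in erf115ko and 462 to 630 in Col-0. The 3 root meristem markers measured of 9 (AGL42, BBM and JKD) summed to 87.9 to 93.6, 103 to 106 and 105 to 115 in the same order. They did not differ alike. On the log2 scale AGL42 averaged 4.62, 5.13 and 5.14, BBM 4.90, 5.09 and 5.20, and JKD 5.18, 5.13 and 5.22. RCA, the 1 photosynthetic marker measured of 10, stood at 22.0 to 23.8, 21.1 to 28.2 and 18.6 to 22.2 on the linear scale, and none of the 4 root cap markers was named. The part of RNA quality, of the cutting at harvest or of cell makeup in the results below was not tested. In whole root tips fewer cells of a type and less RNA per cell cannot be told apart.

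The genes fell into a group of 4 with large differences, 1 gene with a small difference in the same direction, and 4 that did not share that direction across the genotypes. Levels are log2 RMA values, given for replicates 1, 2 and 3 of each genotype, and each is a level of its own probe set that is not compared with that of another gene. Differences are log2 fold changes with the standard error (SE) of a limma fit over all probe sets and arrays.

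CML23, a calmodulin-like protein closely related to TCH2, stood at 5.37, 6.25 and 5.68 in ERF115OE, 6.70, 6.73 and 6.54 in erf115ko, and 7.23, 7.43 and 7.29 in Col-0. The 3 genotypes did not overlap anywhere in this gene, with the overexpressor lowest, the mutant between and the wild type highest. The mean of ERF115OE was 2.92-fold below that of Col-0 (log2 fold change -1.55, SE 0.18). The overexpressor arrays also spread more, with an SD of 0.45, against 0.10 in erf115ko and 0.10 in Col-0 (n = 3 each).

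AT4G27280 showed the same order. Its levels were 7.37, 8.00 and 7.59 in ERF115OE, 8.57, 8.24 and 8.18 in erf115ko, and 8.93, 9.12 and 9.40 in Col-0. Again no array of 1 genotype overlapped another genotype, and ERF115OE lay 2.83-fold below Col-0 (-1.50, SE 0.17). Over all 22746 probe sets, 0.523% had this order with no overlap between genotypes, and 24.9% had their means in this order. The genes were chosen with both comparisons of ERF115OE known. Its lowest place thus describes the choice, and these shares are no test of it.

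AT1G76640 and CML38 are next to each other on chromosome 1 in the gene table, and each has a probe set of its own. AT1G76640 had 5.91, 6.54 and 6.01 in ERF115OE, 7.16, 6.42 and 6.66 in erf115ko, and 7.43, 7.77 and 7.67 in Col-0. All wild-type arrays were above all others here, while the highest overexpressor array was above the lowest mutant array. ERF115OE lay 2.77-fold below Col-0 (-1.47, SE 0.20).

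CML38 had 4.21, 4.57 and 4.39 in ERF115OE, 5.33, 4.73 and 4.76 in erf115ko, and 5.21, 5.91 and 5.26 in Col-0. The overexpressor arrays lay below all others, and the mutant and wild type overlapped because mutant replicate 1 was above the lowest wild-type arrays. ERF115OE lay 2.10-fold below Col-0 (-1.07, SE 0.20). In both neighbours replicate 1 was the highest of the mutant arrays and replicate 2 the highest of the wild type.

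CML37 lay low on every array, and only 17.8% of probe sets had a lower mean. It had 2.39, 2.56 and 2.51 in ERF115OE, 2.62, 2.53 and 2.58 in erf115ko, and 2.61, 2.84 and 2.80 in Col-0. Its means followed the order of the 4 genes above, over a much smaller span (ERF115OE minus Col-0 -0.26, SE 0.08). RMA compresses differences at such low signal, so the size is not exact. With CML37, the means of 5 of the 9 genes ran in the order ERF115OE, erf115ko, Col-0, from low to high. Over all probe sets 24.9% did so. As the choice of genes drew on the overexpressor values, this count is a description.

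**Figure D1:**
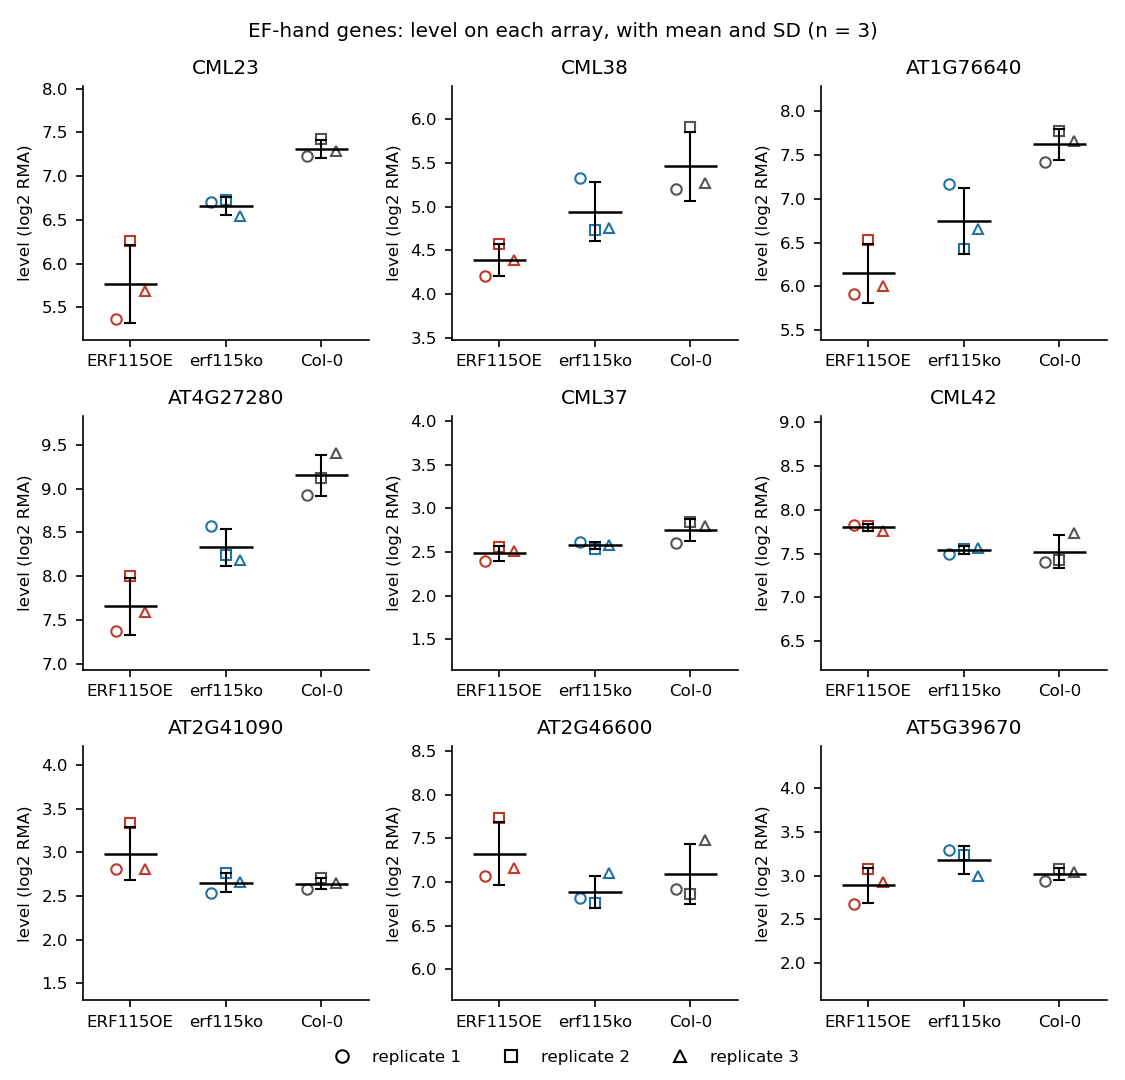
Level of each of the 9 EF-hand genes on each array (log2 RMA, vertical axis; every panel spans the same range of log2 units) in ERF115OE, erf115ko and Col-0. Symbols are replicates, horizontal lines are means and bars are SD (n = 3); CML23 and AT4G27280 show 3 separate steps, while CML42 is highest in ERF115OE.

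The remaining 4 genes did not show these steps. CML42 had 7.83, 7.81 and 7.76 in ERF115OE, 7.49, 7.56 and 7.57 in erf115ko, and 7.41, 7.43 and 7.74 in Col-0. All overexpressor arrays were above all others, by a narrow margin over wild-type replicate 3, and the mutant arrays lay within the range of the wild type. The difference of ERF115OE from Col-0 was 0.28 (SE 0.09) and that from erf115ko 0.26 (SE 0.09).

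AT2G41090, which lies beside the touch gene TCH3 on chromosome 2 in the gene table, had 2.81, 3.34 and 2.81 in ERF115OE, 2.54, 2.76 and 2.66 in erf115ko, and 2.58, 2.70 and 2.64 in Col-0. The overexpressor arrays were above all others, and replicate 2 stood well above the other overexpressor arrays. The signal was low, with 22.2% of probe sets below its mean. ERF115OE minus Col-0 was 0.34 (SE 0.13), or 0.166 (SE 0.083) without overexpressor replicate 2.

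AT2G46600 had 7.07, 7.73 and 7.16 in ERF115OE, 6.82, 6.76 and 7.10 in erf115ko, and 6.92, 6.86 and 7.49 in Col-0. All 3 genotypes overlapped, and the difference of ERF115OE from Col-0 was 0.23 (SE 0.20), or 0.026 without overexpressor replicate 2 and 0.43 without wild-type replicate 3. AT5G39670, at a low signal with 27.7% of probe sets below its mean, had 2.67, 3.07 and 2.93 in ERF115OE, 3.30, 3.24 and 3.00 in erf115ko, and 2.94, 3.07 and 3.04 in Col-0. Its genotypes overlapped as well, and ERF115OE minus Col-0 was -0.13 (SE 0.11), or -0.018 without overexpressor replicate 1 and -0.22 without overexpressor replicate 2.

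In the comparison of ERF115OE with Col-0, 4 of the 9 genes passed an adjusted p of 0.05 as lower (CML23, AT4G27280, AT1G76640 and CML38) and 0 as higher, while over all probe sets 1.7% were called lower and 3.75% higher. The genes were chosen with results of this comparison known, so these calls describe the choice and no p-value is given for them. Arrays did not overlap in 5 genes on the lower side, against 10.6% of all probe sets, and in 2 on the higher side, against 9.26%. The median difference was -0.26 over the 9 genes and -0.02 over all probe sets. At an unadjusted p of at most 0.05, 5 genes were lower, namely those 4 and CML37, against 8.92% of all probe sets, and 2 were higher (CML42 and AT2G41090), against 9.32%. CML42 was called higher in 2 of 19 fits, with array weights (0.30, SE 0.08) and without wild-type replicate 3 (0.39, SE 0.07). CML37 passed as lower in 1 of the 17 fits that tested it, without wild-type replicate 1 (-0.34, SE 0.08).

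**Figure D2:**
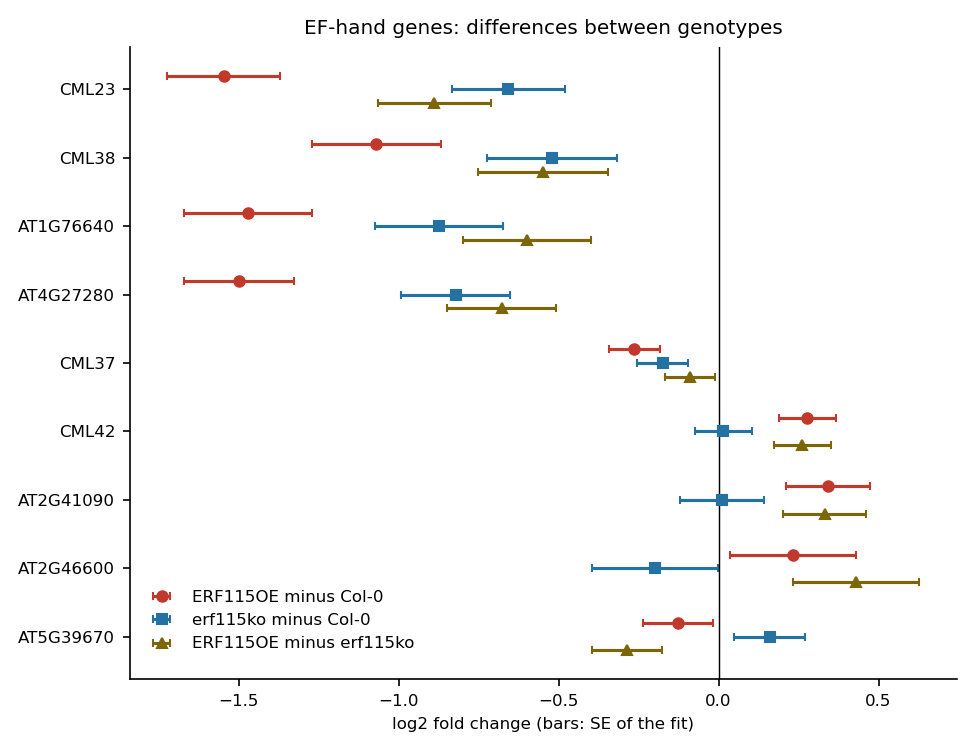
Log2 fold changes of the 9 EF-hand genes in the 3 comparisons (horizontal axis), with bars for the SE of the limma fit. For CML23, CML38, AT1G76640 and AT4G27280 all 3 points lie below 0, and ERF115OE minus Col-0 lies between -1.55 and -1.07.

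The comparison of erf115ko with Col-0 asks whether disruption of the gene also moves these transcripts. None of the 9 passed over all probe sets in limma, where 0.00879% of probe sets were called lower and 0.0044% higher. The comparison uses the same wild-type arrays as that of the overexpressor, so its direction is not independent of the values the genes were chosen on. AT1G76640 was 1.83-fold lower in erf115ko (-0.87, SE 0.20, adjusted p = 0.58). AT4G27280 was 1.77-fold lower (-0.82, SE 0.17, adjusted p = 0.479). CML23 was 1.58-fold lower (-0.66, SE 0.18, adjusted p = 0.755). In these 3 genes every mutant array lay below every wild-type array, as in 3.96% of all probe sets. No gene had all its mutant arrays above the wild type, as 4.19% of probe sets did.

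CML38 stood at -0.52 (SE 0.20, adjusted p = 0.9996), or at -0.30 without wild-type replicate 2, its highest array. At an unadjusted p of at most 0.05, 4 of the 9 genes were lower in the mutant (AT4G27280, AT1G76640, CML23 and CML38) and 0 higher, against 2.15% and 2.39% of all probe sets. CML37 stood at -0.17 (SE 0.08), AT2G46600 at -0.20 (SE 0.20) and AT5G39670 at 0.16 (SE 0.11). Without wild-type replicate 3 AT2G46600 stood at -0.00029. CML42 and AT2G41090 stood at 0.02 and 0.01, with 95% intervals of -0.18 to 0.21 and -0.28 to 0.30. These intervals leave room for changes in either direction. The median over the 9 genes was -0.20, against 0.0021 over all probe sets.

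ERF115OE was also set against erf115ko, a comparison that shares the overexpressor arrays with the first. The genes were chosen with results of this comparison known too, so its calls and counts describe the choice. CML23 was 1.85-fold lower in ERF115OE (-0.89, SE 0.18) and was the 1 gene of the 9 that passed, against 1.03% of all probe sets called lower and 2.65% higher. It did not pass without overexpressor replicate 3, without any single one of the 3 mutant arrays, or with only the 6 arrays compared. AT4G27280 stood at -0.68 (SE 0.17), short of the threshold in the main fit, and passed under 7 of the alternatives, among them both filters on low values and the fit without overexpressor replicate 2 (-0.85, SE 0.16). The differences of AT1G76640 and CML38 were -0.60 and -0.55 (SE 0.20 each), and that of CML37 was -0.09 (SE 0.08).

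Among the other 4 genes, AT2G46600 stood at 0.43 (SE 0.20), AT2G41090 at 0.33 (SE 0.13), CML42 at 0.26 (SE 0.09) and AT5G39670 at -0.29 (SE 0.11). Without overexpressor replicate 2 AT2G46600 stood at 0.22 and AT2G41090 at 0.155, and without overexpressor replicate 1 AT5G39670 stood at -0.18. CML42 passed as higher in 1 of 19 fits, that without wild-type replicate 3, which enters this comparison only through the shared spread. Arrays did not overlap on the lower side in 3 genes (CML23, CML38 and AT4G27280), against 10.6% of all probe sets, and on the higher side in 2 (CML42 and AT2G41090), against 9.58%. At an unadjusted p of at most 0.05, 5 genes were lower (CML23, CML38, AT1G76640, AT4G27280 and AT5G39670), against 7.73% of all probe sets, and 2 higher (CML42 and AT2G41090), against 7.9%. The median over the 9 genes was -0.29, against -0.02 over all probe sets.

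Other genes of calcium signalling were taken from lists by gene symbol, with all 10 loci of the group left out, TCH2 among them. Of these lists, 26 genes were named on a probe set of their own. They are 3 of 15 further calmodulins and calmodulin-like genes, 8 of 70 calcium channels, pumps and exchangers, and 15 of 36 calmodulin-binding factors. The 8 are all glutamate receptor-like (GLR) genes, which encode cation channels of the membrane known in wound signalling. The 15 are all IQD genes, whose proteins bind calmodulin and lie along microtubules. None of the 70 listed calcium-dependent kinases, CBL sensors and CIPK kinases was named on a probe set of its own. Most of the listed genes are thus not covered here. None of the 26 passed in any of the 3 comparisons. Over all probe sets, 1.7% were called lower and 3.75% higher in ERF115OE than in Col-0. The shares were 0.00879% and 0.0044% for erf115ko against Col-0, and 1.03% and 2.65% for ERF115OE against erf115ko. With shares this small, the lack of calls does not set the 26 genes apart from other probe sets. The lowest adjusted p was 0.116 for ERF115OE against Col-0, 0.9996 for erf115ko against Col-0 and 0.108 for ERF115OE against erf115ko.

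CML30, CML41 and CML43 stood at -0.04 (SE 0.09), 0.04 (SE 0.10) and 0.11 (SE 0.07) in ERF115OE against Col-0, and at 0.16 (SE 0.09), 0.00 (SE 0.10) and 0.10 (SE 0.07) in erf115ko against Col-0. The 8 GLR genes had a median of -0.08 in ERF115OE against Col-0 and lay between -0.30 and 0.08. The 15 IQD genes had a median of -0.02 there and lay between -0.29 and 0.19. Over all 26 genes the medians were -0.03 for ERF115OE against Col-0, -0.0012 for erf115ko against Col-0 and -0.02 for ERF115OE against erf115ko, close to the -0.02, 0.0021 and -0.02 of all probe sets. At an unadjusted p of at most 0.05, 2 genes were lower in ERF115OE than in Col-0, against 8.92% of all probe sets. These were GLR3.5 (-0.30, SE 0.10) and IQD16 (-0.29, SE 0.13). Between erf115ko and Col-0 0 differed, where only 2.15% of all probe sets were lower and 2.39% higher. In ERF115OE against erf115ko 3 were lower, namely iqd33 (-0.43, SE 0.13), IQD26 (-0.23, SE 0.08) and CML30 (-0.21, SE 0.09), against 7.73% of all probe sets. None of the 26 was higher at that level in any of the 3 comparisons. Of all probe sets, 9.32% were higher in ERF115OE than in Col-0, 2.39% in erf115ko than in Col-0 and 7.9% in ERF115OE than in erf115ko. The genes named here were singled out after their values were seen.

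**Figure D3:**
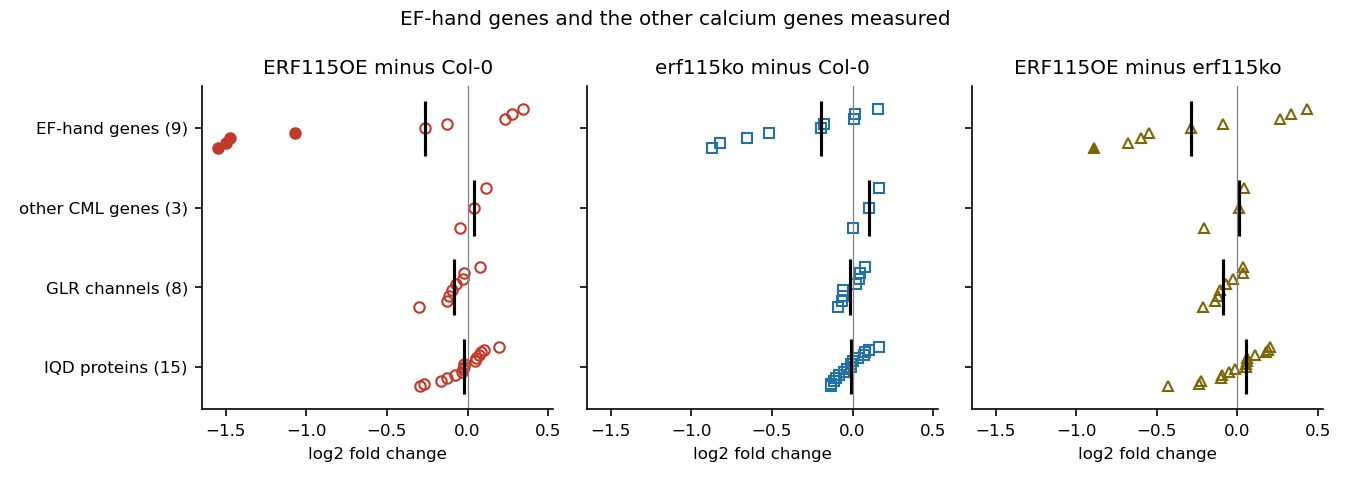
Log2 fold changes (horizontal axis) of the 9 EF-hand genes and of the 26 other calcium genes, by list, in the 3 comparisons. Filled symbols passed an adjusted p of 0.05 in limma, open symbols did not, and vertical lines are medians; the other CML, GLR and IQD genes have no filled symbol and lie between -0.43 and 0.20.

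Of 25 rapid touch and wound genes without EF-hands, 3 were named on a probe set of their own. STZ, a zinc finger repressor, had 4.81, 5.69 and 5.20 in ERF115OE, 5.95, 5.57 and 5.44 in erf115ko, and 6.17, 6.60 and 6.27 in Col-0, with all wild-type arrays above the rest. Its difference was -1.12 in ERF115OE against Col-0 (SE 0.21, limma adjusted p = 0.0105) and -0.69 in erf115ko against Col-0 (SE 0.21, adjusted p = 0.835). The ubiquitin ligase gene PUB23 had 7.01, 7.03 and 7.19 in ERF115OE, 6.65, 6.54 and 6.45 in erf115ko, and 6.74, 7.07 and 6.86 in Col-0. It was higher in ERF115OE than in erf115ko (0.53, SE 0.10, limma adjusted p = 0.013) and stood at 0.19 (SE 0.10, adjusted p = 0.338) against Col-0. In erf115ko against Col-0 its difference was -0.34 (SE 0.10, adjusted p = 0.76), with all mutant arrays below the wild type. The call against the mutant was lost without overexpressor replicate 3 (adjusted p = 0.057) or mutant replicate 3 (0.0665). Its close relative PUB22 stood at 0.28 (SE 0.09, adjusted p = 0.158) against the mutant, or 0.36 (adjusted p = 0.0259) with array weights, and at 0.19 (SE 0.09, adjusted p = 0.318) against Col-0.

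The genes whose profile over the 9 arrays came closest to CML23, CML38 and AT4G27280 were found among 13427 named probe sets outside the 9 genes. Each profile was centred on its own mean, and likeness was the root mean square (RMS) difference over the arrays. These neighbours were picked for their likeness, so their values are a description. Closest to CML23, whose own SD over the 9 arrays was 0.71, were AT1G72240 (RMS 0.15), AT4G27652 (0.21) and STZ (0.24). AT1G72240 averaged 5.18 in ERF115OE, 5.997 in erf115ko and 6.72 in Col-0. AT4G27652 averaged 6.27, 6.89 and 7.46 in that order.

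Closest to CML38, with an SD of 0.54, were ORA47 (RMS 0.13), a transcription factor gene of the ERF family known in jasmonate responses, STZ (0.17) and AT4G24110 (0.19). ORA47 averaged 3.32 in ERF115OE, 3.78 in erf115ko and 4.43 in Col-0, and AT4G24110 averaged 3.53, 4.08 and 4.46. Closest to AT4G27280, with an SD of 0.69, were AT1G72240 (0.19), EXO (0.19), a gene known in cell expansion, and AT5G17350 (0.20). EXO averaged 6.33 in ERF115OE, 6.89 in erf115ko and 7.62 in Col-0, and AT5G17350 averaged 4.98, 5.49 and 6.01.

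Within the EF-hand genes, AT1G76640 and AT4G27280 differed by an RMS of 0.14, CML23 and AT4G27280 by 0.18, and CML23 and AT1G76640 by 0.23. The tandem neighbours CML38 and AT1G76640 differed by 0.24. CML38 differed from AT4G27280 by 0.30 and from CML23 by 0.31. ORA47, STZ and AT4G24110 were thus closer to CML38 than any of the EF-hand genes was. CML37 differed from CML23 by 0.56, from AT4G27280 by 0.53 and from CML38 by 0.39. CML42, AT2G41090 and AT2G46600 each differed from CML23 by 0.79, more than the SD of CML23 itself.

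**Figure D4:**
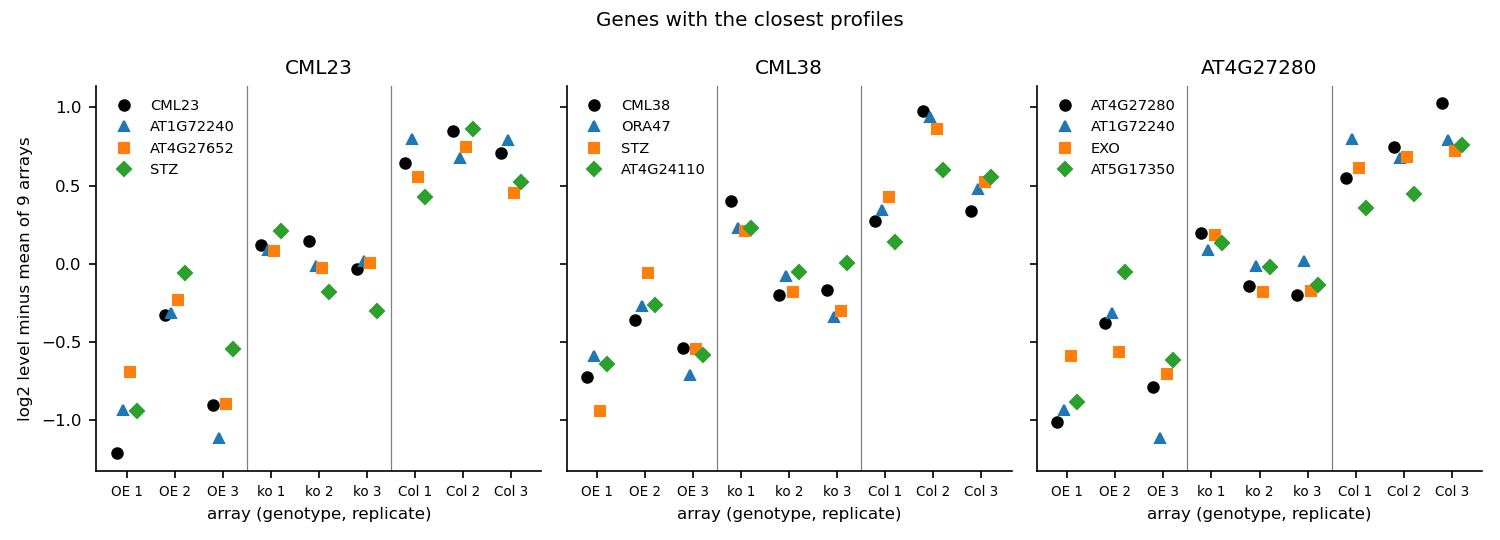
Log2 level minus the mean of the 9 arrays (vertical axis) for CML23, CML38 and AT4G27280 (black) and the 3 named genes closest to each (coloured), by array (OE, ERF115OE; ko, erf115ko; Col, Col-0; numbers are replicates). In all 3 panels the ERF115OE arrays lie lowest and the Col-0 arrays highest on average, and replicate 2 is the highest ERF115OE array in all profiles drawn.

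The arrays of 1 genotype also differed across these genes, and the counts that follow are a description. Overexpressor replicate 2 was the highest of its 3 arrays in 8 of the 9 genes, against 27.3% of all probe sets, the exception being CML42. Overexpressor replicate 1 was the lowest in 7 of the 9, against 29.3% of all probe sets. Wild-type replicate 1 was the lowest of its genotype in 8 of the 9, against 34.2%, the exception being AT2G46600, and wild-type replicate 2 was the highest in 6, against 30.5%.

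Among mutant arrays, replicate 1 was the highest in 5 of the 9 genes, against 39.2% of all probe sets. For the 5 genes with stepwise means, the mean deviation from the genotype mean was -0.24, 0.29 and -0.05 for overexpressor replicates 1, 2 and 3, 0.23, -0.12 and -0.11 for the mutant, and -0.18, 0.16 and 0.03 for the wild type. Over all probe sets the median deviation of an array lay between -0.02 and 0.02. AT2G41090, AT2G46600 and AT5G39670, whose genotype means did not show the steps, also had replicate 2 as their highest overexpressor array. In the other genotypes AT2G46600 had replicate 3 as its highest array and replicate 2 as its lowest, and AT2G41090 had replicate 1 as its lowest mutant array.

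**Figure D5:**
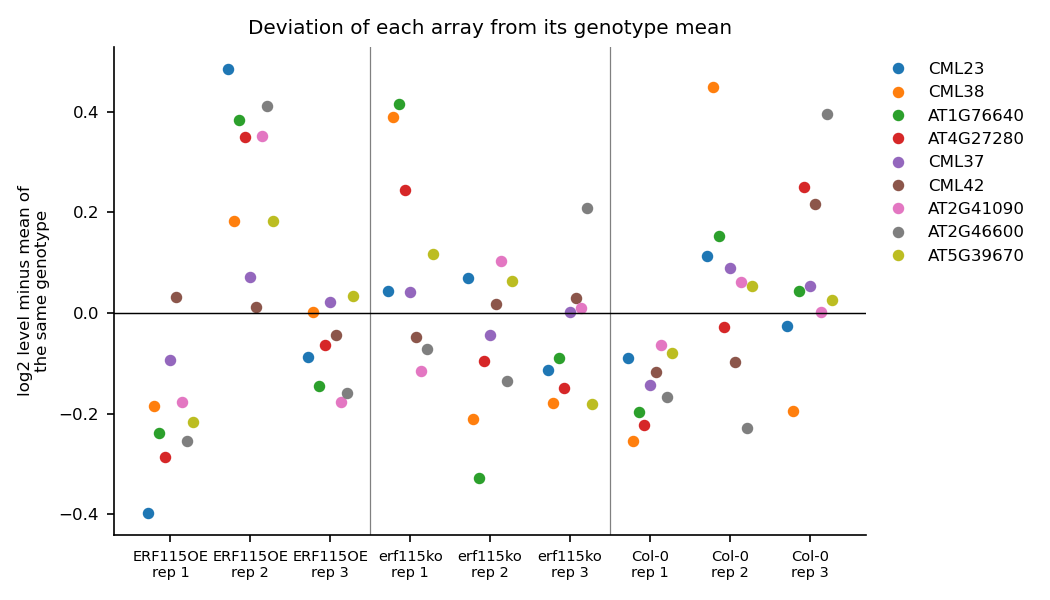
Log2 level minus the mean of the same genotype (vertical axis) for the 9 EF-hand genes on each of the 9 arrays. Points of ERF115OE replicate 2 all lie above 0, and those of Col-0 replicate 1 all lie below 0.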

How the data were processed

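The deposited values are log2 expression values of 22810 probe sets on 9 arrays, 3 per genotype, made by the authors with affy 1.36 and RMA, per the submitters' processing notes. This method corrects background, gives all arrays 1 distribution and summarises probes, so a shift shared by most transcripts would be removed. The 64 control probe sets were left out. Genes were named through the platform table and the RefSeq gene table (assembly TAIR10.1, names and order only): 13513 probe sets have 1 gene, 503 several and 8730 are unnamed here. The build behind the array design is not given in the sources used here, and no coordinates or sequences are printed.

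All probe sets entered limma 3.58.1 under R 4.3.3 (eBayes after lmFit, 1 mean per genotype, 6 residual and 4.49 prior degrees of freedom), tested on simulated data, with p-values adjusted by the Benjamini-Hochberg method over 22746 probe sets. The number of arrays limits the precision (median SE 0.088). No label states that replicates were grown separately, so p-values reflect only how far these samples spread, possibly for technical reasons.

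The genes, lists and tests were chosen with earlier results of these data known. All genes of the group, every list gene that passes (up to 4 per direction and list), 3 touch and wound genes per direction and the 3 closest profiles are named. A symbol pattern that had matched clone names was corrected after the tables were seen. Alternatives were median centring, quantile normalization, 2 filters on low values, a trended prior, array weights, only the arrays compared, a replicate block, no probe sets with shared probes, and leaving out each array.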

Additional observations from a re-analysis of the deposited data

How the results depend on the processing

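Of 465 alternative values of the log2 fold changes of the EF-hand genes, 458 kept their direction, with a change smaller than the spread between replicates for the comparisons of ERF115OE and the same side of the threshold for erf115ko against Col-0. The other 7 concern AT2G41090 and CML42 in erf115ko against Col-0, which lie near 0 and turned to -0.016 and -0.011 under median centring, and ranged over -0.0412 to 0.0681 and -0.0436 to 0.123 with 1 array left out. The count of EF-hand genes lower in ERF115OE than in Col-0 was 4 in the main fit, 3 with only probe sets whose mean is above the median probe set, and 4 to 5 with 1 array left out, and that of higher ones was 0, 0 to 1 with 1 array left out, and 1 with array weights. In erf115ko against Col-0 it was 0 under every alternative, in both directions. In ERF115OE against erf115ko 1 gene was lower in the main fit, 0 to 2 with 1 array left out, 2 with array weights, a trended prior, quantile normalization, median centring or a filter on low values of either kind, and 0 with only the 6 arrays compared. The number of higher ones there was 0, and 0 to 1 with 1 array left out. The genes were chosen with both comparisons of ERF115OE known, and all fits draw on the same 9 arrays. Counts and calls in those comparisons thus describe the choice under each setting. CML23, AT4G27280 and AT1G76640 were called lower in ERF115OE than in Col-0 in all 19 fits, and CML38 in all 18 that tested it. The causes of these changes were not tested, except that both filters test fewer probe sets and drop CML37, AT2G41090 and AT5G39670, and that the filter on the median probe set, which tests 5 of the 9 genes, drops CML38 too.

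The replicate number used as a block left these counts at 4, 0 and 1, and called 1 of the 26 other calcium genes lower in ERF115OE than in erf115ko (iqd33, adjusted p = 0.0202), as array weights did (1, adjusted p = 0.0321), where the main fit called 0. Deviations of same-numbered arrays correlated at -0.21 to 0.14 over the 3 genotypes. Between erf115ko and Col-0 they correlated at 0.138, 0.120 and 0.096, against -0.083 to -0.036 for the 6 pairs of other numbers, so each array there was most like the one with its own number, which is a hint from the data and not part of the design. Pairs with ERF115OE showed no such order, not every same-numbered pair was above 0.1, and the numbers were not treated as pairing the samples.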
